A study of Homo sapiens with 6 samples.

Results

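The transcripts described here encode the plasma proteins of blood coagulation, fibrinolysis and complement, together with the cell-surface proteins that start or restrain both cascades. The members were 49 genes given by symbol, of which 46 had a row among the 24432 gene symbols of the tables and 3 (C6, C9 and C4BPA) were not analysed here. Of the 46, 40 encode secreted factors and 6 encode membrane proteins (F3, PROCR, THBD, CD46, CD55 and CD59). RNA was sequenced from cells labelled PLC/PRF/5, a long-used cell line from a human liver cancer, in 2 groups of 3 libraries. Resistant cells carry the labels lenvatinib resistant for genotype and lenvatinib for treatment. Lenvatinib is an oral inhibitor of VEGF, FGF and other receptor kinases. According to the labels, exposure began at 20 µmol/L, was raised in increments of 0.5 mmol/L and ended at 40 mmol/L, and the units of these doses do not match. Sensitive cells carry the labels WT and control. Exposure to the drug and resistance cannot be told apart, and the labels leave unsaid whether replicates came from separate cultures and whether resistant cells were 1 clone. The p-values therefore measure the spread between these libraries, which may be technical.

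The liver makes most of the proteins of both cascades. Coagulation starts when factor VII meets tissue factor on a cell surface and runs through serine proteases, their cofactors V and VIII and prothrombin to the cleavage of fibrinogen into fibrin, while antithrombin, protein C and tissue factor pathway inhibitor hold it back and plasmin dissolves the clot. Complement is started by antibodies, lectins or spontaneous turnover of C3, and it ends in the pore built from C5b to C9. Nucleated cells carry CD46, CD55 and CD59 to stop complement on their own membrane.

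Values are FPKM, which is per transcript length and library size, so levels can be compared between genes. For 99.9% of 20085 genes above 0 in at least 2 libraries, the values fell on whole-number multiples of a step particular to the gene. The tolerance was 0.001, and the step of a gene differed by at most 3.46% between libraries. Very many multiples were tried, so for genes above 0 in only 2 libraries a match was nearly certain and tells little. The step allows the smallest number of reads behind each value to be given, and the true number can be a multiple of it. Summed over all genes these smallest numbers came to between 36131768 and 36637343 reads in resistant and between 33927933 and 35548099 reads in sensitive libraries. Pearson's r between replicates was 0.9939 to 0.9960 in resistant cells and 0.9515 to 0.9947 in sensitive cells over log2(FPKM + 1) of all tested genes, which are not independent points, and sensitive replicate 3 was the library that stood apart. Libraries of different groups correlated at 0.6796 to 0.7064.

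Of the 23 secreted factors that could be tested 19 fell in resistant cells, whereas none of the 5 tested membrane proteins was called lower and 3 rose. Among all tested genes 32.5% were called lower and 35.2% higher. For 13 of the 19 and 2 of the 3, only 1 group reached 1 FPKM, so the filter described below fixed their direction. A further 17 secreted factors were too low to test. Summed over the 40 secreted factors, the level was 54.3, 68.9 and 59.5 FPKM in the resistant libraries, against 1539, 1474 and 1533 FPKM in the sensitive libraries. Summed over the 6 membrane proteins it was 217, 224 and 216 FPKM in the resistant libraries, against 86.4, 71.6 and 52.6 FPKM in the sensitive libraries. Most of the membrane sum was CD59 in resistant libraries (132, 135 and 120 FPKM) and CD46 in sensitive libraries (60.9, 47.9 and 31.5 FPKM). The groups did not overlap in either sum, and they lay in opposite order. In bulk RNA, fewer cells of a type and less RNA per cell cannot be told apart.

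Genes were tested with limma on log2(FPKM + 1) where they reached 1 FPKM in at least 3 of the 6 libraries, and calls were made at 0.05 after Benjamini-Hochberg adjustment across every tested gene. Of the 46 members 28 were tested, and 19 were called lower, 4 higher and 5 neither. Over all 11694 tested genes 67.7% were called, 32.5% as lower and 35.2% as higher in resistant cells, so calls were common everywhere. Of the 19 lower members all were secreted, and of the 4 higher members 3 were membrane proteins (PROCR, CD55 and CD59) and 1 was secreted (TFPI). The median log2 fold change was -2.34 over the 23 tested secreted members and 2.91 over the 5 tested membrane members, against 0.08 over all tested genes. These counts and medians are descriptions, because 13 members reached 1 FPKM in sensitive libraries only and 2 in resistant libraries only, so the filter itself fixed their direction. The 13 were F2, F5, F7, F10, KNG1, FGB, PROC, SERPINF2, CPB2, C5, C8A, C8B and C8G, and the 2 were PROCR and CD55. The adjusted p-values given below for these members are descriptions as well. The other 13 reached 1 FPKM in a library of both groups, and of these 6 were lower, 2 higher and 5 not called, where 61.9% of 9888 such genes were called, 29.7% as lower. Groups did not overlap for 23 of the 28 tested members, against 74.4% of all tested genes. Fold changes below are on the log2(FPKM + 1) scale, which understates the change of genes at low values, and adjusted p-values are from limma with Benjamini-Hochberg adjustment.

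**Figure D1:**
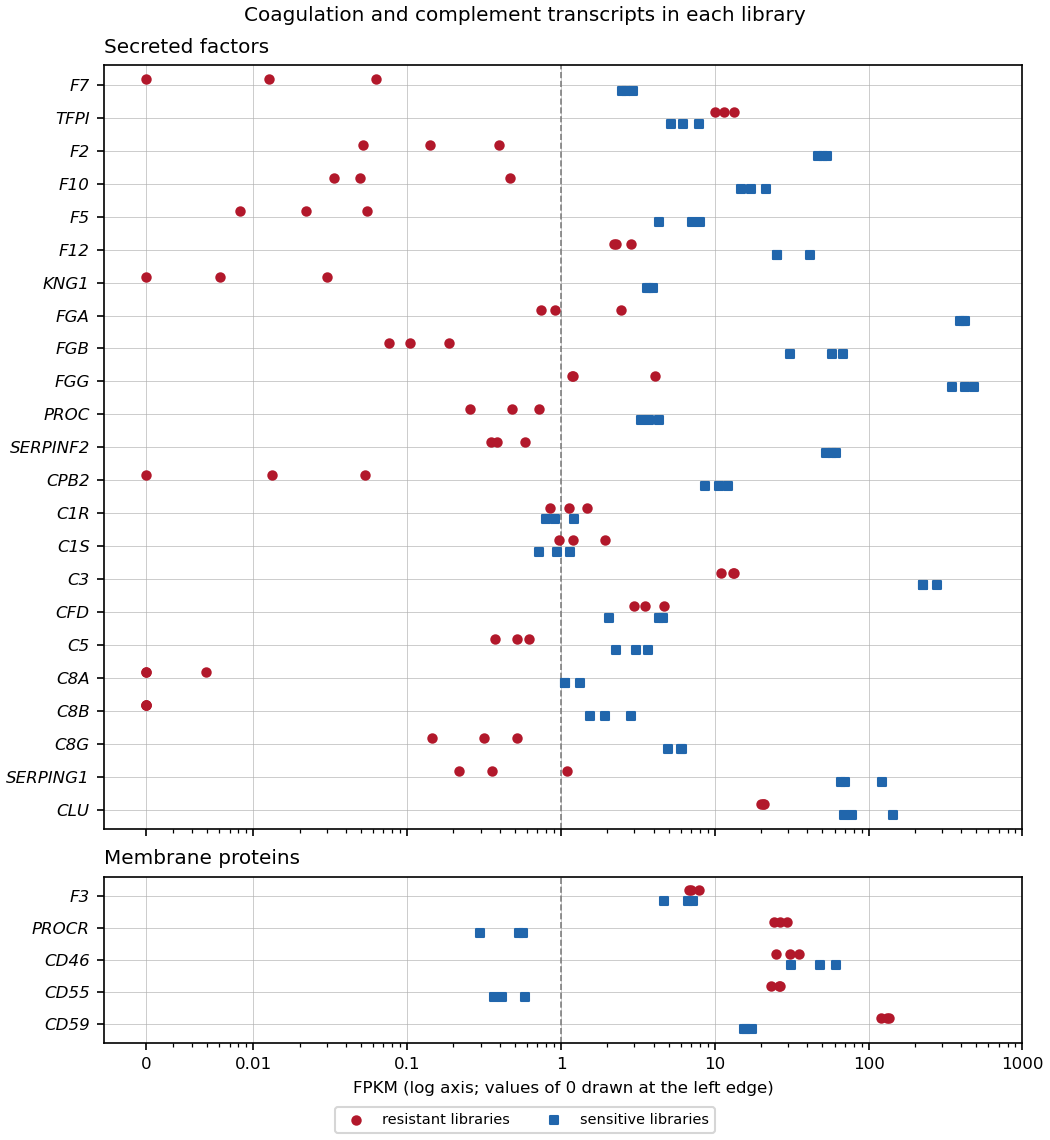
FPKM of the 28 tested members (rows) in each resistant library (red circles) and each sensitive library (blue squares) on a log axis, with values of 0 at the left edge and a dashed line at 1 FPKM. Resistant libraries lie to the left of sensitive ones for 19 secreted factors, and to the right for TFPI, PROCR, CD55 and CD59.

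The fibrinogen chains, the subunits of the clotting protein itself, were among the most abundant secreted members of sensitive cells and were nearly gone from resistant cells. FGA, the alpha chain, stood at 0.919, 2.46 and 0.744 FPKM in resistant libraries, against 421, 409 and 395 FPKM in sensitive libraries. Its mean was 297 times lower in resistant cells, with a log2 fold change of -7.50 (SE 0.254, adjusted p = 9.51e-07), and no resistant library came near a sensitive one. Without resistant replicate 2 the mean was 491 times lower. At least 141, 379 and 115 reads lay behind the resistant values of FGA, against 65391, 64299 and 60000 behind the sensitive ones. FGG, the gamma chain, stood at 1.18, 4.06 and 1.2 FPKM in resistant libraries, against 481, 423 and 347 FPKM in sensitive libraries (log2 fold change -7.16, SE 0.339, adjusted p = 3.54e-06). FGB, the beta chain, stood at 0.104, 0.187 and 0.0759 FPKM in resistant libraries, against 67.7, 57.8 and 30.8 FPKM in sensitive libraries (log2 fold change -5.49, SE 0.283, adjusted p = 5.21e-06). For each of the 3 chains, resistant replicate 2 was the highest resistant library.

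The chains were not equally abundant per transcript length. The ratio of FGB to FGA was 0.113, 0.076 and 0.102 in resistant libraries, against 0.161, 0.141 and 0.078 in sensitive libraries, so FGB was the scarce chain in both groups and the ranges overlapped. The ratio of FGG to FGA was 1.28, 1.65 and 1.62 in resistant libraries, against 1.14, 1.03 and 0.879 in sensitive libraries, without overlap and with no test made. Together the chains made up 4.05%, 9.73% and 3.4% of the summed FPKM of secreted members in resistant libraries, against 63%, 60.4% and 50.4% in sensitive libraries. F13B, the carrier subunit of factor XIII, which cross-links fibrin, reached no more than 0.0751 FPKM in any library and was not tested.

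The 3 fibrinogen genes lie side by side on chromosome 4 with no other coding gene between them, and they fell together, so the bases before their starts are shown with those of F2, which fell as well. Sequences are from RefSeq (GRCh38.p14), the 150 bases before the first listed start of each gene, for FGA chr4:154590743-154590892, minus strand, for FGB chr4:154562830-154562979, plus strand, for FGG chr4:154612657-154612806, minus strand and for F2 chr11:46719063-46719212, plus strand. Capitals mark matches on either strand to TTGCNNAA, the letters of sites for the C/EBP factors.
FGA: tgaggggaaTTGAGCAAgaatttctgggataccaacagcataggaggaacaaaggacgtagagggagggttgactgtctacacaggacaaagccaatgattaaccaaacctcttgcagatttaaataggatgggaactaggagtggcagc
FGB: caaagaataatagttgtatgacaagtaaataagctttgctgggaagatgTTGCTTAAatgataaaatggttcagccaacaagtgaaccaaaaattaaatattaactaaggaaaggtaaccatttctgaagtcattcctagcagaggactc
FGG: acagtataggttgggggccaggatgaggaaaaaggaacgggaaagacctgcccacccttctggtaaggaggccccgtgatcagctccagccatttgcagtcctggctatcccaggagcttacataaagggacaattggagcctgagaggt
F2: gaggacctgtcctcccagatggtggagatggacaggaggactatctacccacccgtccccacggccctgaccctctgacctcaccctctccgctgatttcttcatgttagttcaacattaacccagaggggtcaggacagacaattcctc
The match began 141 bases before the start of FGA and 101 before that of FGB, and FGG and F2 had none in their 150 bases. In the 250 bases before the start, 8 of the 39 members with a promoter in the table held TTGCNNAA (KLKB1, KNG1, FGA, FGB, CPB2, C1R, MBL2 and C6), against 9.13% of 27305 genes. Of the 14 lower members with a promoter 4 held it, and none of the 4 higher members did. A match is a description of letters and not a binding site.

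At the start of coagulation factor VII fell, the inhibitor of tissue factor rose, and tissue factor itself was not called. F3, the gene of tissue factor, stood at 6.82, 7.91 and 7.02 FPKM in resistant libraries, against 7.25, 6.73 and 4.7 FPKM in sensitive libraries. The groups overlapped and F3 was not called (log2 fold change 0.21, SE 0.169, adjusted p = 0.311). F7, factor VII, stood at 0.0126, 0.0628 and 0 FPKM in resistant libraries, against 2.48, 2.92 and 2.63 FPKM in sensitive libraries (log2 fold change -1.84, adjusted p = 3.22e-06). TFPI, whose product blocks factor Xa and the tissue factor complex and exists in secreted and membrane-anchored forms, stood at 9.96, 13.4 and 11.4 FPKM in resistant libraries, against 7.93, 6.17 and 5.18 FPKM in sensitive libraries. It was the one secreted member called higher (log2 fold change 0.77, SE 0.179, adjusted p = 0.00748), and its mean was 1.8 times higher in resistant cells. Tested against a change of 1.5-fold rather than 0, TFPI was not called (adjusted p = 0.344).

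F3 is the member whose promoter held TGANTCA, the letters of sites for the factor AP-1, which 6.6% of the 27305 genes hold. Both matches, 223 and 210 bases before the start, are in capitals in the 150 bases shown here (RefSeq GRCh38.p14, chr1:94541860-94542009, minus strand).
F3: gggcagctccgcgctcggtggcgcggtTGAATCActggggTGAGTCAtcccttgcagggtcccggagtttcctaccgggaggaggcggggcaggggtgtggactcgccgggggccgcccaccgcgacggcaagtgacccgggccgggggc
No other of the 39 members with a promoter held these letters in the 250 bases before its start.

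The tested proteases of the common pathway fell. F2, prothrombin, stood at 0.0513, 0.396 and 0.14 FPKM in resistant libraries, against 47, 50.6 and 53.5 FPKM in sensitive libraries, with a mean 258 times lower in resistant cells (log2 fold change -5.43, SE 0.145, adjusted p = 4.78e-07) and 526 times lower without resistant replicate 2. F10, factor X, which cleaves prothrombin, stood at 0.0333, 0.463 and 0.0495 FPKM in resistant libraries, against 14.7, 17.2 and 21.5 FPKM in sensitive libraries with a mean 98 times lower in resistant cells (adjusted p = 4.51e-06) and 431 times lower without resistant replicate 2. F7 and F10 are adjacent genes on chromosome 13, and both were lower. F9, factor IX, was listed at 0 except for 0.00915 FPKM, at least 1 read, in sensitive replicate 3. F11, factor XI, was listed at 0 in all 3 resistant libraries and stood at 0.497, 0.74 and 0.229 FPKM in sensitive libraries, under the filter, and was called lower where no filter was applied (adjusted p = 0.0141). KLKB1, plasma prekallikrein and the neighbour of F11 on chromosome 4, was listed at 0 in all libraries but sensitive replicate 2, at 0.0304 FPKM.

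Of the cofactors, factor V fell, while factor VIII was too low for the filter. F5, factor V, stood at 0.022, 0.0547 and 0.00819 FPKM in resistant libraries, against 8.04, 7.11 and 4.33 FPKM in sensitive libraries (log2 fold change -2.83, SE 0.199, adjusted p = 2.19e-05). F8, factor VIII, stood at 0.815, 1.09 and 1.16 FPKM in resistant libraries, against 0.172, 0.249 and 0.0924 FPKM in sensitive libraries. Every resistant library was above every sensitive one, with at least 294, 394 and 422 reads in resistant and 63, 92 and 33 reads in sensitive libraries. F8 missed the filter by 1 library and was called higher where no filter was applied (log2 fold change 0.78, SE 0.0908, adjusted p = 0.00109). In the contact system, F12, factor XII, kept a measurable level. It stood at 2.28, 2.21 and 2.86 FPKM in resistant libraries, against 25.2, 25.2 and 41.8 FPKM in sensitive libraries (log2 fold change -3.17, adjusted p = 1.96e-05). KNG1, kininogen, stood at 0, 0.0302 and 0.00604 FPKM in resistant libraries, against 3.76, 3.63 and 3.96 FPKM in sensitive libraries (log2 fold change -2.24, adjusted p = 1.22e-06).

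Among the anticoagulants the receptor was higher in resistant cells and its ligand lower. The receptor reached 1 FPKM in resistant libraries only and the ligand in sensitive libraries only, so the filter fixed both directions. PROCR, the protein C receptor known from endothelial cells, stood at 29.5, 24.2 and 26.7 FPKM in resistant libraries, against 0.297, 0.569 and 0.535 FPKM in sensitive libraries. Its mean was 57.4 times higher in resistant cells, with a log2 fold change of 4.24 (SE 0.138, adjusted p = 8.22e-07). PROC, protein C itself, stood at 0.256, 0.478 and 0.721 FPKM in resistant libraries, against 3.72, 3.32 and 4.32 FPKM in sensitive libraries (log2 fold change -1.69, adjusted p = 6.46e-05). THBD, thrombomodulin, the receptor that turns thrombin toward protein C, stayed at or under 0.295 FPKM. It stood at 0.196, 0.0943 and 0.295 FPKM in resistant libraries, against 0.0499, 0 and 0 FPKM in sensitive libraries, and was called higher where no filter was applied (log2 fold change 0.23, adjusted p = 0.0309). SERPINC1, antithrombin, was listed at 0 in all resistant libraries and at 0.325, 0.347 and 0.664 FPKM in sensitive libraries, and was called lower with no filter (adjusted p = 0.00556). SERPIND1, heparin cofactor II, stood at 0.0348, 0.023 and 0 FPKM in resistant libraries, against 2.2, 1.77 and 0.656 FPKM in sensitive libraries, and reached 1 FPKM in too few libraries to be tested. With no filter it was called lower (log2 fold change -1.26, adjusted p = 0.00872).

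Both tested inhibitors of fibrinolysis fell. SERPINF2, alpha-2-antiplasmin, the direct inhibitor of plasmin, stood at 0.384, 0.583 and 0.351 FPKM in resistant libraries, against 57.9, 60.9 and 52.9 FPKM in sensitive libraries (log2 fold change -5.34, SE 0.124, adjusted p = 3.6e-07). CPB2, the carboxypeptidase that removes plasminogen binding sites from fibrin, stood at 0.053, 0.0132 and 0 FPKM in resistant libraries, against 12.2, 10.6 and 8.66 FPKM in sensitive libraries (log2 fold change -3.48, adjusted p = 1.83e-06). PLG, plasminogen, was listed at 0 in all 6 libraries.

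**Figure D2:**
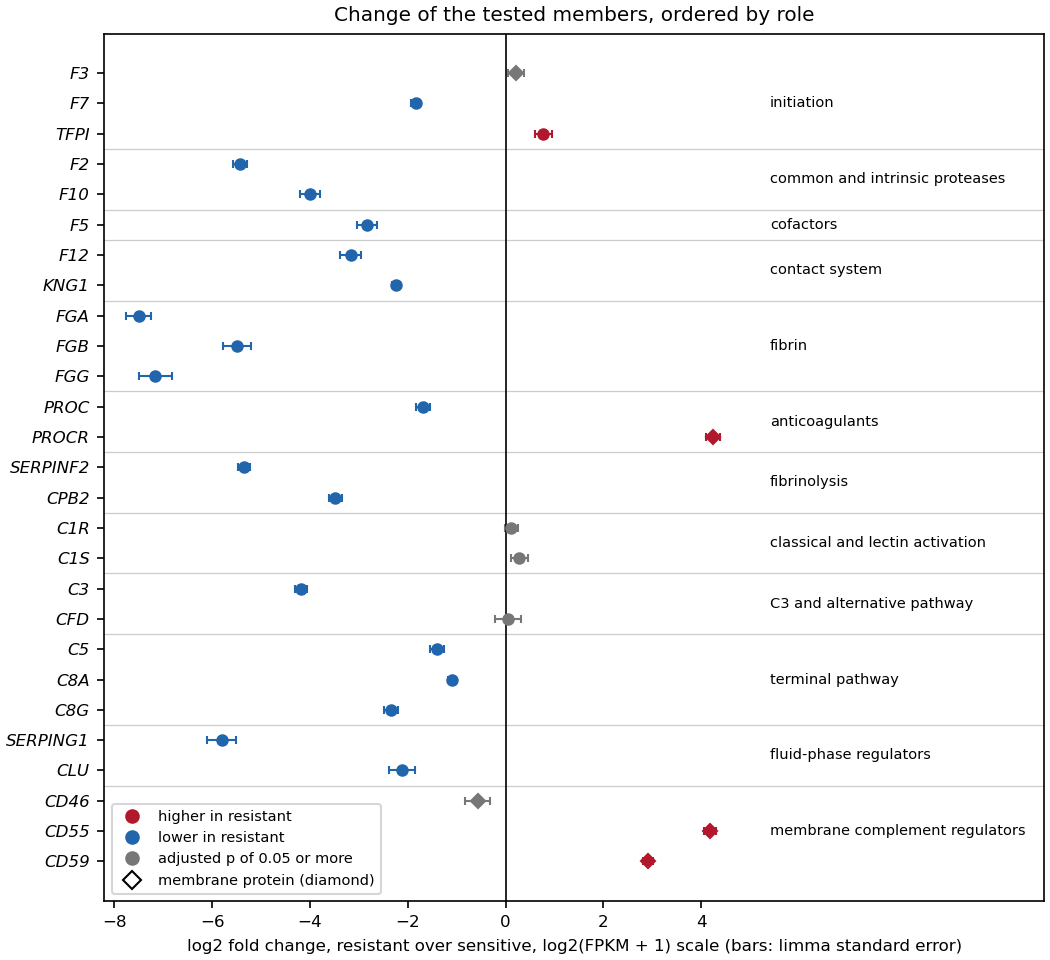
log2 fold change of 27 tested members, resistant over sensitive on the log2(FPKM + 1) scale, with bars for the limma standard error, circles for secreted and diamonds for membrane proteins, grouped by role. FGA and FGG lie farthest left at -7.50 and -7.16, and PROCR and CD55 farthest right at 4.24 and 4.17. C8B, listed at 0 in every resistant library, is not drawn.

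Complement was uneven from step to step. C3, the central component on which all routes meet, stood at 11, 13.3 and 13.1 FPKM in resistant libraries, against 225, 225 and 277 FPKM in sensitive libraries. It fell by 4.18 on the log2 scale (SE 0.128, adjusted p = 7.06e-07), yet with at least 2254, 2730 and 2705 reads in resistant libraries it was still well measured there. CFD, factor D, the protease that activates factor B in the alternative pathway, stood at 3.52, 4.67 and 2.99 FPKM in resistant libraries, against 4.6, 4.36 and 2.04 FPKM in sensitive libraries. The groups overlapped and CFD was not called (log2 fold change 0.05, SE 0.266, adjusted p = 0.865). Its direction rested on single libraries, since the log2 fold change was -0.08 without resistant replicate 2, -0.23 without sensitive replicate 3 and -0.07 under quantile normalization. CFB, factor B, stayed at or under 0.175 FPKM in all libraries.

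The proteases of the C1 complex, which start the classical pathway, were not called. C1R stood at 0.842, 1.13 and 1.48 FPKM in resistant libraries, against 0.909, 0.793 and 1.22 FPKM in sensitive libraries (log2 fold change 0.12, SE 0.14, adjusted p = 0.474). Its direction turned under quantile normalization, at -0.04. C1S stood at 1.2, 0.963 and 1.94 FPKM in resistant libraries, against 0.94, 0.716 and 1.15 FPKM in sensitive libraries (log2 fold change 0.28, SE 0.17, adjusted p = 0.189). The 2 genes are neighbours on chromosome 12, both were low and neither was called. The other 6 members of the classical and lectin routes were under 1 FPKM in every library. C2, the protease of the classical C3 convertase, stood at 0.0345, 0 and 0.00686 FPKM in resistant libraries, against 0.327, 0.533 and 0.879 FPKM in sensitive libraries, and was called lower with no filter (log2 fold change -0.63, adjusted p = 0.00958). C4A and C4B, near-identical copies between which reads may be divided with error, reached no more than 0.0808 and 0.0235 FPKM. The lectin MBL2 and the protease MASP1 were listed at 0 in all resistant libraries and reached no more than 0.0987 and 0.0118 FPKM in sensitive libraries, and MASP2 reached no more than 0.0945 FPKM in any library.

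All 4 terminal components that were measured, which build the membrane attack pore, fell, and all 4 passed the filter through the sensitive libraries. C5 stood at 0.373, 0.516 and 0.617 FPKM in resistant libraries, against 3.66, 3.07 and 2.29 FPKM in sensitive libraries (log2 fold change -1.40, SE 0.149, adjusted p = 0.000166). C8G, the gamma chain of C8, stood at 0.145, 0.519 and 0.317 FPKM in resistant libraries, against 6.15, 6.03 and 4.95 FPKM in sensitive libraries (log2 fold change -2.34, adjusted p = 1.12e-05). The adjacent genes C8A and C8B on chromosome 1 were all but silent in resistant cells. C8A was listed at 0, 0 and 0.0049 FPKM in resistant libraries, the last of these at least 1 read, against 1.32, 1.06 and 1.06 FPKM in sensitive libraries (log2 fold change -1.10, adjusted p = 2.21e-05). C8B was listed at 0 in all 3 resistant libraries, against 2.85, 1.93 and 1.54 FPKM in sensitive libraries (adjusted p = 9.52e-05).

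Of the fluid-phase regulators, SERPING1 and CLU passed the filter and fell to different degrees. SERPING1, the C1 inhibitor, which also restrains factor XII and kallikrein, stood at 0.356, 1.1 and 0.217 FPKM in resistant libraries, against 66.5, 70.6 and 122 FPKM in sensitive libraries (log2 fold change -5.80, SE 0.299, adjusted p = 5.27e-06). CLU, clusterin, a chaperone that binds the forming attack complex, stood at 20.5, 21 and 20 FPKM in resistant libraries, against 69.5, 77.8 and 145 FPKM in sensitive libraries (log2 fold change -2.12, SE 0.265, adjusted p = 0.000385). For both, sensitive replicate 3 was the highest library, and without it the log2 fold changes were -5.52 and -1.79. At least 26, 81 and 16 reads lay behind the resistant values of SERPING1. Its mean was 155 times lower in resistant cells, and 302 times lower without resistant replicate 2. CFI, factor I, was listed at 0 in all resistant libraries and at 0.415, 0.365 and 0.189 FPKM in sensitive libraries, and was called lower with no filter (adjusted p = 0.00462). C4BPB, a chain of C4b-binding protein, reached no more than 0.125 FPKM.

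The membrane regulators of complement, read apart from the secreted factors, were a separate case. CD55, which speeds the decay of C3 convertases, stood at 23.2, 26.1 and 26.4 FPKM in resistant libraries, against 0.413, 0.582 and 0.368 FPKM in sensitive libraries. Its mean was 55.5 times higher in resistant cells (log2 fold change 4.17, SE 0.123, adjusted p = 6.12e-07). CD59, which blocks the insertion of C9, stood at 132, 135 and 120 FPKM in resistant libraries, against 17.5, 15.9 and 15.5 FPKM in sensitive libraries, a mean 7.94 times higher (log2 fold change 2.91, SE 0.101, adjusted p = 1.02e-06). For both genes every resistant library lay far above every sensitive one. CD46, the cofactor with which factor I cleaves C3b and C4b, stood at 25.1, 30.9 and 35.4 FPKM in resistant libraries, against 60.9, 47.9 and 31.5 FPKM in sensitive libraries. The groups overlapped through sensitive replicate 3, and CD46 was not called (log2 fold change -0.57, SE 0.25, adjusted p = 0.0824). Without sensitive replicate 3 it was called lower (log2 fold change -0.82, adjusted p = 0.00112), and geometric-mean scaling gave the same call (-0.62, adjusted p = 0.0293).

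The balance among the 3 regulators differed between the groups. CD59 over CD46 was 5.27, 4.37 and 3.4 in resistant libraries, against 0.287, 0.331 and 0.492 in sensitive libraries, and CD55 over CD46 was 0.923, 0.842 and 0.747 in resistant libraries, against 0.00678, 0.0122 and 0.0117 in sensitive libraries. CD46 was thus the most abundant of the 3 in every sensitive library and CD59 in every resistant library. CD55 and CD46 lie in the same gene cluster on chromosome 1 with CR2, CR1 and CR1L between them, and within that cluster CD55 rose and CD46 did not.

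**Figure D3:**
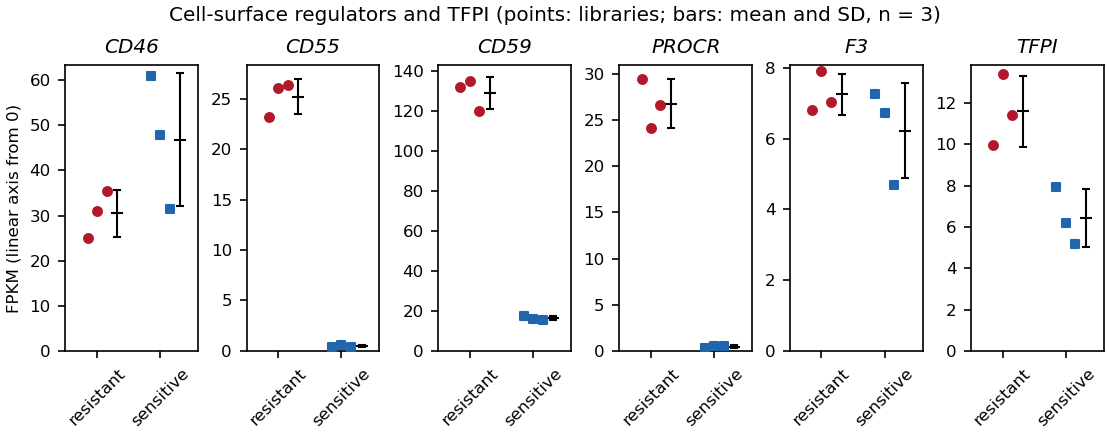
FPKM of CD46, CD55, CD59, PROCR, F3 and TFPI in each resistant library (red circles) and each sensitive library (blue squares), on linear axes from 0 that differ between panels, with mean and SD beside the points. CD55, CD59, PROCR and TFPI show groups that do not overlap with resistant libraries higher, whereas CD46 and F3 overlap.

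The stretches before the starts of the 3 membrane genes that rose are shown for comparison with those of fibrinogen (RefSeq GRCh38.p14, 150 bases before the first listed start, for PROCR chr20:35171922-35172071, plus strand, for CD55 chr1:207321528-207321677, plus strand and for CD59 chr11:33736480-33736629, minus strand). Capitals would mark TTGCNNAA, and there were none.
PROCR: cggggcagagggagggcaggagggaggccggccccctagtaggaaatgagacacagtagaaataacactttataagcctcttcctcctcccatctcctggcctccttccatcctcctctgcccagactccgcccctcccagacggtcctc
CD55: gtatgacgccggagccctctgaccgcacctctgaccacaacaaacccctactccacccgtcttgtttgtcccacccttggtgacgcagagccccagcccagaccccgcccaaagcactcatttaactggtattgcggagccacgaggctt
CD59: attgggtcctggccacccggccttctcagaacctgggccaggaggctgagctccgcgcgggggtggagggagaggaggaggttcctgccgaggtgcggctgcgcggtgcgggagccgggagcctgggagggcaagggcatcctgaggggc
These stretches held 60.7%, 60% and 72.7% of G and C for PROCR, CD55 and CD59, against 46%, 33.3%, 54.7% and 56% for FGA, FGB, FGG and F2. The stretch shown for F3, which was not called, lies farther from the start and held 74%. No other promoters were measured, so these shares describe the printed stretches alone.

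What was left of the secreted factors in resistant cells was a different mixture from that in sensitive cells. CLU, C3 and TFPI together made up 76.4%, 69.1% and 74.8% of the secreted sum in resistant libraries, against 19.7%, 21% and 27.8% in sensitive libraries. The level kept also differed among factors. Over 13 secreted members with a sensitive mean of at least 5 FPKM, leaving out TFPI, the mean kept in resistant libraries was between 0.21% and 21.1% of the sensitive mean, and 9 of the 13 kept under 2%.

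The residual levels followed the library for most of these factors. Resistant replicate 2 was the highest resistant library for 11 of the 13, and for 8 it held more than 2 times the mean of the other two resistant libraries. F10 stood at 0.187%, 2.6% and 0.278% of its sensitive mean in resistant replicates 1, 2 and 3, and FGG at 0.282%, 0.974% and 0.288%. In contrast, C3 stood at 4.54%, 5.46% and 5.41%, F12 at 7.41%, 7.18% and 9.3% and CLU at 21.1%, 21.5% and 20.6%. These 3 thus held nearly even levels across the resistant libraries, with resistant replicate 2 at 1.1, 0.859 and 1.03 times the mean of the others. The hepatocyte markers moved in the same way. All 11 markers with a sensitive mean of at least 5 FPKM were highest in resistant replicate 2, with medians of 0.21%, 0.93% and 0.328% of the sensitive mean in resistant replicates 1, 2 and 3. Their part in the residual levels was not tested. Without resistant replicate 2 the same numbers of members were called, 19 secreted members lower, 1 secreted member higher and 3 membrane members higher.

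**Figure D4:**
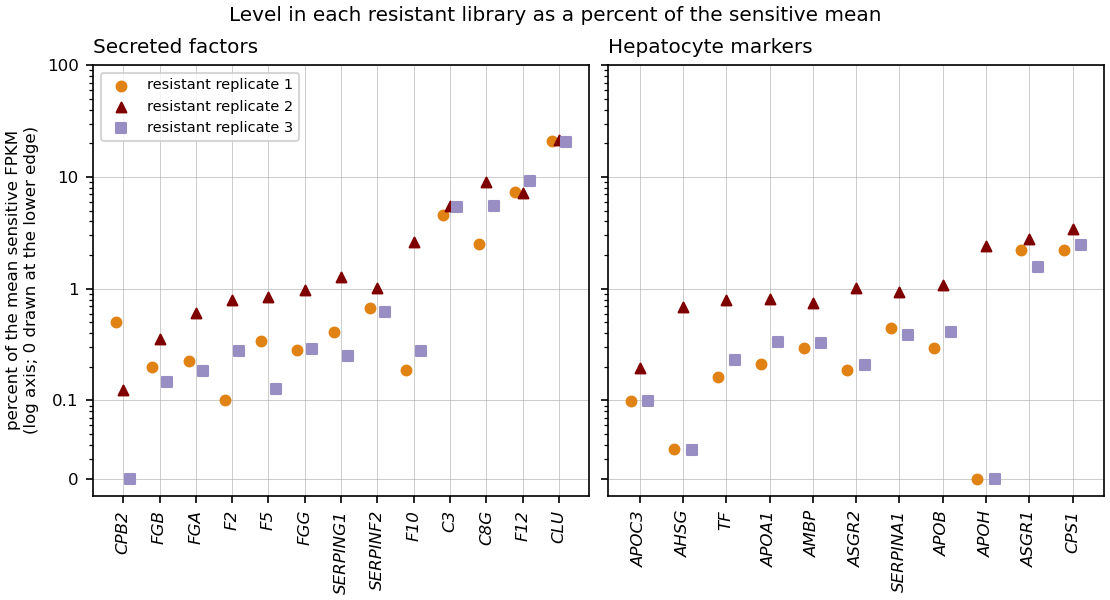
Level of 13 secreted factors (left) and 11 hepatocyte markers (right) in each resistant library as a percent of the sensitive mean, on a log axis with 0 at the lower edge. Resistant replicate 2 (triangles) lies above the others for most factors and all markers, while C3, F12 and CLU show 3 points close together.

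Other genes of the 2 cascades were taken from lists written with the members. Of 23 further genes of coagulation and fibrinolysis 13 were tested, of which 6 were higher, 6 lower and 1 not called. Among all tested genes 35.2% were higher and 32.5% lower. Of the 13 genes 3 reached 1 FPKM in resistant libraries only, PLAU and TFPI2 among them, and 3 in sensitive libraries only, so the filter fixed their direction. PLAU, urokinase, averaged 890 ± 113 FPKM in resistant and 0.632 ± 0.0643 FPKM in sensitive cells (SD, n = 3 each, as for the means below), with a log2 fold change of 9.08 (adjusted p = 9.14e-08). TFPI2, a relative of TFPI that inhibits plasmin, averaged 168 ± 10.8 FPKM in resistant and 0.0569 ± 0.0489 FPKM in sensitive cells (log2 fold change 7.32, adjusted p = 9.14e-08). A2M, a broad protease inhibitor of plasma, averaged 3.65 ± 2.7 FPKM in resistant and 610 ± 61.8 FPKM in sensitive cells (log2 fold change -7.18, adjusted p = 4.68e-06). The 6 lower genes include HPX, hemopexin, a heme carrier rather than a clotting protein.

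Clotting factors II, VII, IX and X and protein C need a vitamin K dependent modification, and factors V and VIII need a carrier to leave the cell. Of 7 genes listed for these steps 1 was higher, 3 were lower and 3 were not called, where 67.7% of all tested genes were called. GGCX, the carboxylase, averaged 9.25 ± 0.307 FPKM in resistant and 15.9 ± 1.5 FPKM in sensitive cells (log2 fold change -0.72, adjusted p = 0.00124). VKORC1, which regenerates vitamin K, averaged 33.4 ± 2.13 FPKM in resistant and 126 ± 11.8 FPKM in sensitive cells (log2 fold change -1.88, adjusted p = 9.54e-06). The processing protease FURIN fell by 4.08 (adjusted p = 8.22e-07) and the quinone reductase NQO1 rose by 4.42 (adjusted p = 7.42e-07) on the log2 scale. The carrier genes of factors V and VIII, LMAN1 and MCFD2, were among the 3 not called.

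Of 29 further complement genes 5 were tested, and 3 were lower, none higher and 2 not called. Among all tested genes 32.5% were lower and 35.2% higher. VTN, vitronectin, a plasma inhibitor of the attack complex, averaged 0.954 ± 0.556 FPKM in resistant and 281 ± 74.6 FPKM in sensitive cells (log2 fold change -7.18, adjusted p = 1.08e-06). CPN1, which inactivates the C3a and C5a peptides, fell by 4.65 (adjusted p = 4.4e-07) and C5AR1, a receptor of C5a, by 2.15 (adjusted p = 0.000903) on the log2 scale. CPN1 and C5AR1 reached 1 FPKM in sensitive libraries only, so the filter fixed their direction, while VTN also reached 1.59 FPKM in resistant replicate 2.

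Liver transcription factors and the signalling of the acute phase, which raises fibrinogen and complement in hepatocytes, were read from 2 further lists. Of 15 liver factors 12 were tested, 9 lower, 1 higher and 2 not called, beside 32.5% lower and 35.2% higher among all tested genes. The filter fixed the direction of 7 of the 12, which reached 1 FPKM in sensitive libraries only, and the 4 named here are among them. HNF4A, a master regulator of hepatocyte genes, averaged 0.0655 ± 0.0315 FPKM in resistant and 29.7 ± 6.59 FPKM in sensitive cells (log2 fold change -4.82, adjusted p = 1.38e-06). FOXA2 and ONECUT1 fell by 4.29 and 3.61 on the log2 scale (adjusted p = 1.75e-06 and 3.83e-05). FOXA3 averaged 0.216 ± 0.0803 FPKM in resistant and 18.5 ± 1.51 FPKM in sensitive cells (adjusted p = 6.74e-07). Of 12 acute phase signalling genes 11 were tested, 9 higher, 1 lower and 1 not called, and 2 of them, IL6 and LIFR, reached 1 FPKM in resistant libraries only. IL6 averaged 314 ± 5.12 FPKM in resistant and 0.214 ± 0.0625 FPKM in sensitive cells (log2 fold change 8.02, adjusted p = 9.14e-08). Its receptor subunit IL6R fell by 2.37 (adjusted p = 0.000224), while the shared subunit IL6ST rose by 1.85 (adjusted p = 0.00115) and the oncostatin M receptor OSMR by 3.07 (adjusted p = 7.61e-06) on the log2 scale.

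The cell type labelled was set against markers. The hepatocyte markers, 14 genes, summed to 20.4, 43.8 and 19.5 FPKM in resistant libraries, against 4161, 4228 and 4586 FPKM in sensitive libraries. All 12 tested markers were lower, beside 32.5% of all tested genes. Of the 12 markers 5 reached 1 FPKM in sensitive libraries only, so the filter fixed their direction. ALB, albumin, was low in both groups, at a mean of 0.00741 FPKM in resistant and 3.21 FPKM in sensitive cells. Of the 8 endothelial markers in the tables, which matter because PROCR, THBD and F8 are known from endothelium, 7 were under 1 FPKM in every library, with PECAM1 at 0.00925 FPKM and CDH5 at 0.0123 FPKM on average in resistant cells, against 0.112 and 0.0438 FPKM in sensitive cells. Among these 7, VWF, also on the coagulation list, stood at 0.237, 0.273 and 0.169 FPKM in resistant libraries, against 0, 0.00282 and 0.00292 FPKM in sensitive libraries, and TEK at 0.00535, 0.0532 and 0.0213 FPKM in resistant libraries, against 0, 0.00523 and 0 FPKM in sensitive libraries. VWF and TEK were thus higher in resistant libraries, as were PROCR, THBD and F8. At least 82, 95 and 59 reads lay behind the resistant values of VWF. Those of TEK rested on at least 1, 10 and 4 reads, against 0, 1 and 0 in sensitive libraries. PECAM1 was lower without overlap, with at least 6, 1 and 1 reads in resistant libraries, against 54, 33 and 11 in sensitive libraries. CDH5 and TIE1 overlapped between the groups, and KDR and ERG were listed at 0 in all libraries. The part of these markers in the results was not tested. The sum over the 8 endothelial markers, 167 to 200 FPKM in resistant libraries against 1 to 1.83 FPKM in sensitive libraries, was almost all ESAM, a junction protein also made outside endothelium. The 10 leukocyte markers summed to 2.96 to 5.85 FPKM in resistant and 250 to 268 FPKM in sensitive libraries, nearly all LYZ and CD68, with PTPRC at 0 in all libraries. The 9 fibroblast markers summed to 2.36 to 3.46 FPKM in resistant and 0.938 to 1.85 FPKM in sensitive libraries, with COL1A1 at 0.13 FPKM in resistant and 0.191 FPKM in sensitive cells on average. The resistant sum was nearly all ACTA2, smooth muscle actin, at 2.77, 3.22 and 2.3 FPKM in resistant libraries, and listed at 0 in all sensitive libraries (adjusted p = 7.89e-06). ACTA2 reached 1 FPKM in resistant libraries only, so the filter fixed its direction. PDGFRB stood at 0.00445, 0.0354 and 0.00442 FPKM in resistant libraries, against 1.22, 1.09 and 0.526 FPKM in sensitive libraries. COL3A1 stood at 0, 0 and 0.0185 FPKM in resistant libraries, against 0.395, 0.273 and 0.268 FPKM in sensitive libraries. Both were too low to test and lay lower in resistant libraries without overlap. The fibroblast markers other than PDGFRB, COL3A1 and ACTA2 overlapped between the groups. The 4 platelet markers in the tables, without PF4, which was not analysed here, stayed at or under 0.403 FPKM in sum. The 4 adipocyte markers, set beside CFD, which adipocytes make in quantity, summed to no more than 0.265 FPKM in resistant and 3.54 FPKM in sensitive libraries, with ADIPOQ at 0 in all libraries.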

How the data were processed

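The deposited tables held 1 value for each gene symbol in each library, taken as FPKM made by the authors: the unit was inferred from column sums that differ between libraries (366048.4 to 475088.1) and from gene-specific steps, and RPKM cannot be told from it. The submitters' processing notes name cutadapt and HISAT2 without versions. Counting program, build, annotation and strandedness were not stated in the labels or tables. Per the labels' protocols, 1.5 µg of total RNA went into each library and serum was 10%. Because a 0 may reflect an estimate that failed, no fold change is printed for a gene with 1 group at 0 throughout. Such genes stayed in the tests, the counts of calls and the medians, C8B among them.

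Groups came from the sample titles. Genes were tested with limma 3.58.1 in R 4.3.3 (limma-trend, log2(FPKM + 1), at least 1 FPKM in at least 3 libraries, all 6 libraries, no covariate, 4 residual and 2.75 prior degrees of freedom), with Benjamini-Hochberg adjustment over 11694 genes. The fit was tested on simulated data. The members, lists and letters searched were chosen with earlier results of these data known. Every member is accounted for, and from each pathway list up to 4 called genes of largest change are named, except a result that is not reported here. When a library was left out, the genes tested stayed those of the full filter. All 49 members matched the RefSeq gene table (GRCh38.p14) by symbol, which served for neighbours alone, and 39 had a promoter in the RefSeq promoter table. Other letters searched (CAAAGTCCA for HNF4, in 0.293% of genes, and a loose NF-kB motif, in 53.7%) matched 0 and 17 of the 39. Python 3.11.15 with pandas 2.3.3, numpy 2.4.6 and matplotlib 3.10.9 produced the summaries and plots.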

Additional observations from a re-analysis of the deposited data

How the results depend on the processing

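Of 437 values of the 28 tested members under 16 alternatives, 426 kept their direction and their side of the threshold, 6 reversed, 4 passed only under the alternative and 1 no longer passed. The reversals concerned genes that were not called in the fit reported. They were C1R at -0.04 under quantile normalization, F3 at -0.01 with resistant replicate 2 and sensitive replicate 3 both left out, and CFD at -0.07 under quantile normalization, -0.08 without resistant replicate 2, -0.23 without sensitive replicate 3 (-0.23 to 0.21 over all single libraries left out) and -0.37 with both libraries left out. That last alternative was chosen after seeing the data, and it called CFD lower (limma adjusted p = 0.0308), C1S higher (0.48 on the log2 scale, limma adjusted p = 0.026) and CD46 lower (-0.84, limma adjusted p = 0.00384).

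Secreted members called lower numbered 19 under every alternative but 3: it was 24 unfiltered, 11 at a mean of 5 FPKM or more and 20 with both libraries left out. All secreted calls under the mean of at least 5 FPKM were 12, where 7396 genes were tested. Secreted members called higher numbered 2 with no filter and 2 with both libraries left out, and 0 in the test against a 1.5-fold change. Membrane members called lower numbered 1, CD46, after scaling to the geometric mean sample, without sensitive replicate 3 and with both libraries left out (1 in each case), and 0 otherwise. Over all genes, 4973 were called (2465 higher and 2508 lower) at a mean of at least 5 FPKM and 4357 (2217 higher and 2140 lower) against a 1.5-fold change, and leaving out single libraries gave 6675 to 9442. With the replicate number as a block, 7193 genes, 19 secreted members lower, 1 secreted member higher and 3 membrane members higher were called, and no call of a member changed. The replicate numbers did not pair the libraries (r of the deviations of same-numbered libraries -0.42, 0.07 and -0.23). Depth limits the residual levels: for F7, KNG1, CPB2, C8A and C8B the smallest read numbers were 10 or fewer in each resistant library. The true numbers can be multiples of these.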
